A study of Mus musculus with 20 samples.

Results

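Granzymes C, D, E, F and G are the products of Gzmc, Gzmd, Gzme, Gzmf and Gzmg, and these 5 genes were found by their symbols among the 45777 rows of the expression table. They were followed in CD8+ T cells that had entered a tumour, sorted on day 4 after treatment and profiled by RNA sequencing. The tumours grew from MC38 cells, which derive from a colon carcinoma of the mouse and here overexpressed the human form of PD-L1. The hosts in every group were mice of the C57BL/6 strain with the genotype hPD-1/hPD-L1/h4-1BB, in which these receptors and this ligand are the human ones. Each of the 4 groups had 5 libraries. Control has no further description in the labels. Pembrolizumab is an antibody against PD-1, ABL503 is an antibody with arms for both PD-L1 and 4-1BB, and the Combination group received ABL503 with pembrolizumab. Mice were randomised at a mean tumour volume of 150 to 200 mm3. Their age and sex are not in the labels, and nothing there says that each library is a different animal, so every p-value measures the spread between these samples.

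Granzymes are serine proteases that cytotoxic lymphocytes store in granules and release onto a target cell, which they enter with the help of the pore-forming protein perforin. Granzyme B is the best known of them and starts apoptosis by cleaving caspases and other proteins. In the mouse its gene heads a run of related genes, granzymes C to G and N, that arose by duplication and have no separate counterparts in the human cluster, where GZMH lies beside GZMB. Granzyme C is known to kill cells by a route distinct from that of granzyme B, and granzymes C to G are known as late products of strongly stimulated T cells and of some natural killer cells.

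All 5 genes lie on the minus strand of chromosome 14 and have 5 exons each (GRCm38, GENCODE M21). Read along the direction of transcription from Gzmb at chr14:56258838-56262260, they come in the order Gzmc (chr14:56231441-56234656), Gzmf (chr14:56205263-56211417), Gzmg (chr14:56156582-56159579), Gzmd (chr14:56129556-56132608) and Gzme (chr14:56117626-56120625), with Gzmn between Gzmf and Gzmg. Their coding sequences are much alike. The stretch of 60 bases shown was picked for holding the most positions that differ among the 5. It therefore overstates how far short reads can tell them apart. Over the whole coding sequence Gzmd and Gzme differed at 39 of 744 aligned bases and shared an unbroken run of 96. Bases 85 to 144 of the coding sequence, counted from the A of the start codon, are shown from the GENCODE transcripts, with each base that differs from Gzme in capitals.
Gzmc: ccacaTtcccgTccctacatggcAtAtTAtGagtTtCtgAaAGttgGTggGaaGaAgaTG
Gzmf: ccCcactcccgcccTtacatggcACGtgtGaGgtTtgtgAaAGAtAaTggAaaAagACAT
Gzmg: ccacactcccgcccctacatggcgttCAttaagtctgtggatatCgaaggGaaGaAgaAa
Gzmd: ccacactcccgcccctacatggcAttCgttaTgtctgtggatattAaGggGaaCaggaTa
Gzme: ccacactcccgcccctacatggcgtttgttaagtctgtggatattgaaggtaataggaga
In these 60 bases Gzmg differed from Gzme at 7 positions, Gzmd at 8, Gzmc at 19 and Gzmf at 20.

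Over the whole coding sequence Gzmd and Gzme were 94.8% identical, and Gzmg was 89.2% identical to Gzmd and 90.0% to Gzme. Gzmc stood apart, with 75.6% to 76.4% identity to the other members and 77.9% to Gzmb. Of all windows of 50 bases in a transcript, the share found letter for letter in another gene's transcript was 4.14% for Gzmc, 21.9% for Gzmd, 20.6% for Gzme, 19.4% for Gzmf and 19.8% for Gzmg, against 0% for Gzmb. At 100 bases these shares were 0%, 0.231%, 0%, 6.71% and 0.247% for the 5 members in the same order, and all of the Gzmf windows were shared with Gm4022, which has no row in the table. The read length is not given in the sources used here, nor is the treatment of reads that fit several genes. Values of Gzmd, Gzme and Gzmg may therefore hold reads of one another, and those of Gzmf reads of Gm4022, Gzmd or Gzmg, so the separate levels of these 4 members are uncertain. At 50 bases Gzmc shared 32 windows with Gzme, 21 with Gzmg and 3 with Gzmd. Gzmf shared 40 with Gzmd and 42 with Gzmg. The low members may thus also hold reads of the more abundant Gzmc, and Gzmd and Gzmg those of Gzmf. The part of such reads in their levels was not tested. The deposited values were judged from the numbers to be FPKM. This unit corrects for the length of a gene and the size of a library, so that levels of different genes can be set side by side.

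The stretches just upstream of the genes are alike too, and are shown because the members were read together. Each is the 250 bases before 1 start of the gene in RefSeq (GRCm38.p6, minus strand). They lie at chr14:56234658-56234907 for Gzmc, chr14:56211408-56211657 for Gzmf, chr14:56159580-56159829 for Gzmg, chr14:56132594-56132843 for Gzmd and chr14:56120626-56120875 for Gzme. For Gzmd and Gzmf the GENCODE start lies a few bases upstream of the start used, inside this stretch. The whole RefSeq gene of Gzmc runs to chr14:56241647, so its stretch lies inside that gene. That of Gzmd runs to chr14:56132603, inside its stretch. Capitals mark the cAMP response element TGACGTCA, bound by CREB and ATF proteins, and the core TGTGGT bound by RUNX factors (ACCACA on the other strand).
Gzmc: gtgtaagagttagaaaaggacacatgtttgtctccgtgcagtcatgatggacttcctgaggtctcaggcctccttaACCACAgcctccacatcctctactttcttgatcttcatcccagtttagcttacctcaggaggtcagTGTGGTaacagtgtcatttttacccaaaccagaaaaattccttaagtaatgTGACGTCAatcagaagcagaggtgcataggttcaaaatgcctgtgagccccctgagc
Gzmf: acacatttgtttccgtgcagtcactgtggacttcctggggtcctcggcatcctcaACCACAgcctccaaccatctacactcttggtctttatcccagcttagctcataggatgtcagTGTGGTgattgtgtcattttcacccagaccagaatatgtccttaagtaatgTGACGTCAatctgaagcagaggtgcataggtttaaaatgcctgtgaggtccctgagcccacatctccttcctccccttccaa
Gzmg: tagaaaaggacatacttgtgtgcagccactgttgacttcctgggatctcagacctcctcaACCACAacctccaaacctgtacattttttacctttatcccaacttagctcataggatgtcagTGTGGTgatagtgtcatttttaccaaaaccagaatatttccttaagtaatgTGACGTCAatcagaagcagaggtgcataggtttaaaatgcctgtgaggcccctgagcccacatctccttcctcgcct
Gzmd: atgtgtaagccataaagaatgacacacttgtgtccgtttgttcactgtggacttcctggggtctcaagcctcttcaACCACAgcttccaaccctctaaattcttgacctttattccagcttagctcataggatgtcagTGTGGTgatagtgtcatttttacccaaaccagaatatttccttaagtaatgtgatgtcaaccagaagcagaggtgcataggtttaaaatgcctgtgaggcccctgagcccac
Gzme: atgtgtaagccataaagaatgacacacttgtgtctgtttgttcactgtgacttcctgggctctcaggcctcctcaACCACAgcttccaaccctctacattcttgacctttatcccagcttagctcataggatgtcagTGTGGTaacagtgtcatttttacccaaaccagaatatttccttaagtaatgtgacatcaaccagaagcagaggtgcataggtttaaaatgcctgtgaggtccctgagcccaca
TGACGTCA was found at 57, 82 and 77 bases before the start used for Gzmc, Gzmf and Gzmg. At the matching place Gzmd had TGATGTCA and Gzme TGACATCA, which are the changes C4T and G5A with positions counted from 1 in TGACGTCA. Neither Gzmb nor Gzmn had TGACGTCA in its own 250 bases, and 1.55% of 32851 RefSeq promoters of the same length held it on either strand. All 5 members held 2 RUNX cores, and Gzmb held 2 as well, against 14% of promoters with at least 1. The longest run found in all 5 was the 20 bases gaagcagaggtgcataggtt. The AP-1 site TGANTCA, the STAT site TTCNNNGAA, the T-box site AGGTGTGA, an NF-kB site and TATAAA were in none of the 5 windows, against 6.75%, 7.02%, 1.12%, 0.356% and 12.4% of all promoters. These letters were searched on both strands and say nothing about which factors bind there.

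1 library stood apart in the summed markers of another T cell lineage, mostly through 1 gene. The 5 gamma-delta T cell markers summed to 232.5 FPKM in Combination 3, mostly Tcrg-C1 at 167. In the other libraries the sum was 3.06 to 77.9, and Sox13 was at 0 in all 20. The highest values of Trdc, Tcrg-C2 and Tcrg-C4 in the Combination were 8.28, 56.3 and 12.1 FPKM, against 8.15, 50.7 and 18.4 in Control. Combination 3 also had the lowest Gzmc, Gzmd, Gzme and Gzmf of its group. The part of these markers in its levels was not tested.

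Gzmc, the member closest to Gzmb, was the most abundant of the 5 on average in every group. It stood at 6.48, 167, 29.3, 17.1 and 20.3 FPKM in Control libraries 1 to 5. With Pembrolizumab it was 85.4, 64.2, 78.5, 106 and 151, with ABL503 248, 473, 411, 396 and 409, and in the Combination 145, 633, 90.7, 706 and 604. Every ABL503 library exceeded every Control and every Pembrolizumab library. Control 2 lay above all 5 Pembrolizumab libraries, and the Combination was split between libraries 1 and 3, which lay within the Pembrolizumab range, and 3 libraries above 600 FPKM. The group means were 48.1 ± 67 (SD, n = 5, as for every mean here), 97 ± 33.6, 387 ± 83.3 and 436 ± 293 FPKM in Control, Pembrolizumab, ABL503 and Combination.

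Gzmf, whose product has been linked to cell death without caspases, came next. Its levels were 6.13, 7.21, 15.3, 0.583 and 2.97 FPKM in Control and 92.2, 55.6, 11.2, 89.9 and 75.1 with Pembrolizumab. They were 47.7, 46.8, 58.9, 40.0 and 104 with ABL503 and 40.7, 171, 10.1, 244 and 90.5 in the Combination. All ABL503 libraries were above all Control libraries, whereas Pembrolizumab 3 and Combination 3 were below Control 3. Means were 6.45 ± 5.61, 64.8 ± 33.3, 59.6 ± 26 and 111 ± 96 FPKM.

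Gzmd and Gzme, the pair of closest copies, were low and had almost no signal in Control. Gzmd was listed at 0 in all 5 Control libraries. It reached 3.11, 1.76, 5.85, 0.799 and 10.7 FPKM with Pembrolizumab, 13.9, 16.5, 0, 2.20 and 5.99 with ABL503, and 7.63, 15.8, 0.537, 8.88 and 14.7 in the Combination. Only ABL503 3 among the 15 treated libraries was listed at 0. Gzme was listed at 0 in Control 2, 3 and 4, at 0.0485 FPKM in Control 5 and at 1.18 in Control 1. It was 1.18, 0.737, 2.31, 3.19 and 6.29 FPKM with Pembrolizumab, 13.3, 8.59, 0.408, 3.88 and 4.95 with ABL503, and 6.13, 16.3, 2.79, 12.7 and 13.4 in the Combination. Every Combination library was above every Control library, and ABL503 3 was again the lowest treated one.

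Gzmg was the scarcest member. It was listed at 0 in all Control libraries, and it reached at least 1 FPKM in only 2 of 20 libraries, ABL503 2 at 2.50 and Combination 1 at 3.73. The other Combination libraries held 0.611, 0.251, 0.221 and 0.880 FPKM. Pembrolizumab libraries held 0.394, 0.419, 0, 0.686 and 0, and the ABL503 libraries other than 2 held 0, 0, 0.582 and 0. Signal above 0 was thus present in 5 of 5 Combination, 3 of 5 Pembrolizumab, 2 of 5 ABL503 and 0 of 5 Control libraries.

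**Figure D1:**
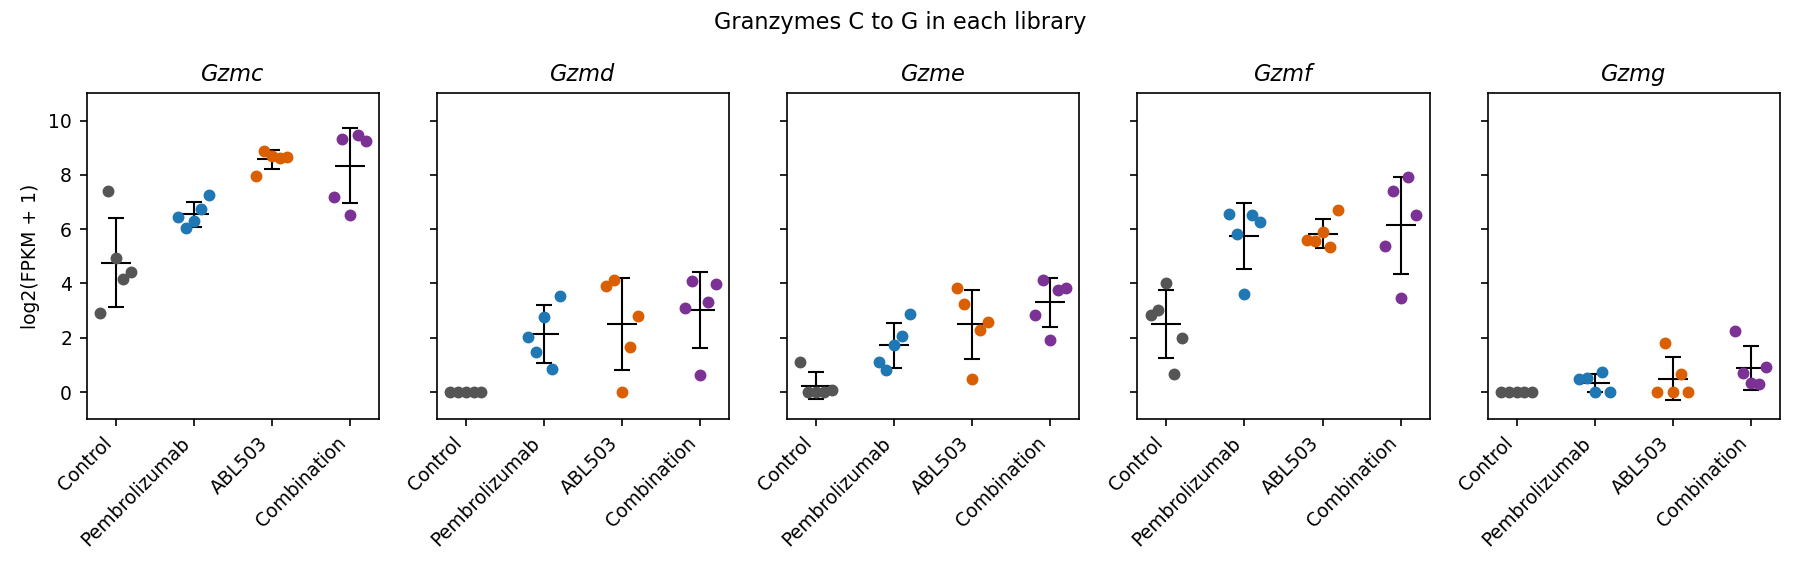
Level of each member in every library as log2(FPKM + 1), by group, with the mean and SD of 5 libraries as black bars and points in replicate order within a group. Gzmc and Gzmf were above the other members, and Gzmd and Gzmg were at 0 in all 5 Control libraries.

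In the order of levels, Gzmc stood above Gzmf, then came Gzmd and Gzme, then Gzmg. In Control the FPKM ranges of Gzmc (6.48 to 167) and Gzmf (0.583 to 15.3) overlapped, and so did those with Pembrolizumab and in the Combination. With ABL503 they were apart, at 248 to 473 against 40.0 to 104. Gzmd and Gzme overlapped in all 4 groups and their order did not hold: their mean levels were 4.44 and 2.74 FPKM with Pembrolizumab, 7.70 and 6.23 with ABL503, and 9.52 and 10.3 in the Combination. The 5 members summed to 54.8 FPKM in Control (range 13.8 to 174), 169 with Pembrolizumab (97.9 to 243), 461 with ABL503 (323 to 547) and 568 in the Combination (104 to 972). Gzmc made up 78.5%, 58.9%, 83.6% and 78.0% of that sum on average in Control, Pembrolizumab, ABL503 and Combination, and Gzmf 19.8%, 36.6%, 13.0% and 17.6%.

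Changes were tested with limma on log2(FPKM + 1) over the 11794 genes that reached at least 1 FPKM in at least 5 libraries. A gene was called at a Benjamini-Hochberg adjusted p under 0.05 over all of them. This scale understates changes of low genes, and where Control was listed at 0 the change is no fold. Gzmc, Gzmd, Gzme and Gzmf entered, and Gzmg did not. Gzmd had no Control library at 1 FPKM or more and Gzme had 1, so these genes entered through the treated groups, and counts that include them are no support for a rise of the family. A second test, an exact two-sided permutation test of the difference in mean log2(FPKM + 1) between 5 and 5 libraries, covered all 5 members in 6 comparisons. Its 30 p-values are unadjusted, and the smallest it can give is 0.00794.

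With Pembrolizumab, Gzmf rose over Control by 3.23 on the log2 scale (SE 0.72, limma adjusted p = 0.0119) and was higher than all Control libraries in 4 of 5. It was 1 of 4 tested members called higher, beside 2.77% of all genes tested. Without the filter on low values its adjusted p was 0.0522, and over the other 17 settings tried it ran from 0.00537 to 0.0364. Gzmc differed from Control by 1.79 (SE 0.63, adjusted p = 0.0995), Gzmd by 2.14 (SE 0.69, adjusted p = 0.0753) and Gzme by 1.48 (SE 0.52, adjusted p = 0.103), none of which passed. The Gzmc result turned on Control 2, without which the difference was 2.45 with an adjusted p of 0.0127, while the other ways of leaving out 1 library gave up to 0.265. With a pseudocount of 0.1 or with array weights Gzmd (adjusted p = 0.0102 and 0.0401) and Gzme (0.0132 and 0.0498) passed, and over the settings tried Gzmd ran from 0.0102 to 0.216 and Gzme from 0.0132 to 0.27. In the exact permutation test Gzmd had no overlap with Control (p = 0.00794), Gzmf gave p = 0.0159, Gzme p = 0.0238, Gzmc p = 0.0476 and Gzmg p = 0.167. Of all genes tested, 2.71% were higher without overlap in this comparison. Gzmd passed the filter through the treated groups, so its lack of overlap is no support for a rise of the family.

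With ABL503, Gzmc rose by 3.81 (SE 0.63, adjusted p = 0.00477 by limma), which was the largest rise of the 11794 genes. The call held in each of 18 other settings, with adjusted p from 0.000508 to 0.0335. Gzmf had the second largest rise, 3.32 (SE 0.72, adjusted p = 0.036), but lost its call in 9 of 10 fits that left out 1 library. Its adjusted p there ran from 0.0255, without Control 3, to 0.103, without Control 4, and the other settings gave 0.0129 to 0.144. These 2 of 4 tested members were called beside 0.585% of all genes. Gzme differed by 2.25 (SE 0.52, adjusted p = 0.0509), just outside the threshold. It passed in 8 of its 18 other settings, among them without Control 1 (0.0483) and without ABL503 3 (0.00843), and the range was 0.00843 to 0.184. Gzmd differed by 2.50 (SE 0.69, adjusted p = 0.128). Without ABL503 3, the library in which it was listed at 0, its adjusted p was 0.0264, within a range of 0.0264 to 0.324. By the exact permutation test Gzmc and Gzmf gave p = 0.00794 with no overlap, against 1.7% of genes higher without overlap. Gzme gave p = 0.0159, Gzmd p = 0.0476 and Gzmg p = 0.444 in the same permutation test.

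In the Combination all 4 tested members rose over Control, beside 6.34% of all genes called higher. The changes were 3.64 for Gzmf (SE 0.72, adjusted p = 0.00298), 3.58 for Gzmc (SE 0.63, adjusted p = 0.0011), 3.06 for Gzme (SE 0.52, adjusted p = 0.000875) and 3.02 for Gzmd (SE 0.69, adjusted p = 0.00779). They ranked 2, 3, 4 and 5 by rise among the 11794 genes, behind Serpine2, a secreted serine protease inhibitor, at 4.63. Gzme and Gzmd entered the test through the treated groups, so their ranks are no support for a rise of the family. Each of these 4 calls held in every other setting in which the gene could be tested, with adjusted p up to 0.0344. Without Combination 3 the 4 members were called too, at 4.04 for Gzmc, 3.62 for Gzmd, 3.40 for Gzme and 4.30 for Gzmf, with limma adjusted p up to 0.00106. Gzmg, which was outside the limma fit, differed by 0.89 with an exact permutation p of 0.00794 and no overlap with Control. When limma was run without the filter, the adjusted p of Gzmg was 0.232. Exact permutation p-values for the others were 0.00794 for Gzmd and Gzme, 0.0159 for Gzmf and 0.0238 for Gzmc. Gzmd and Gzme were higher without overlap, against 4.42% of the genes that passed the filter. Both passed it through the treated groups, so their lack of overlap is no support for a rise of the family either. Gzmg was higher without overlap too, but is not among the genes that passed. The 3 comparisons above share the Control libraries.

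**Figure D2:**
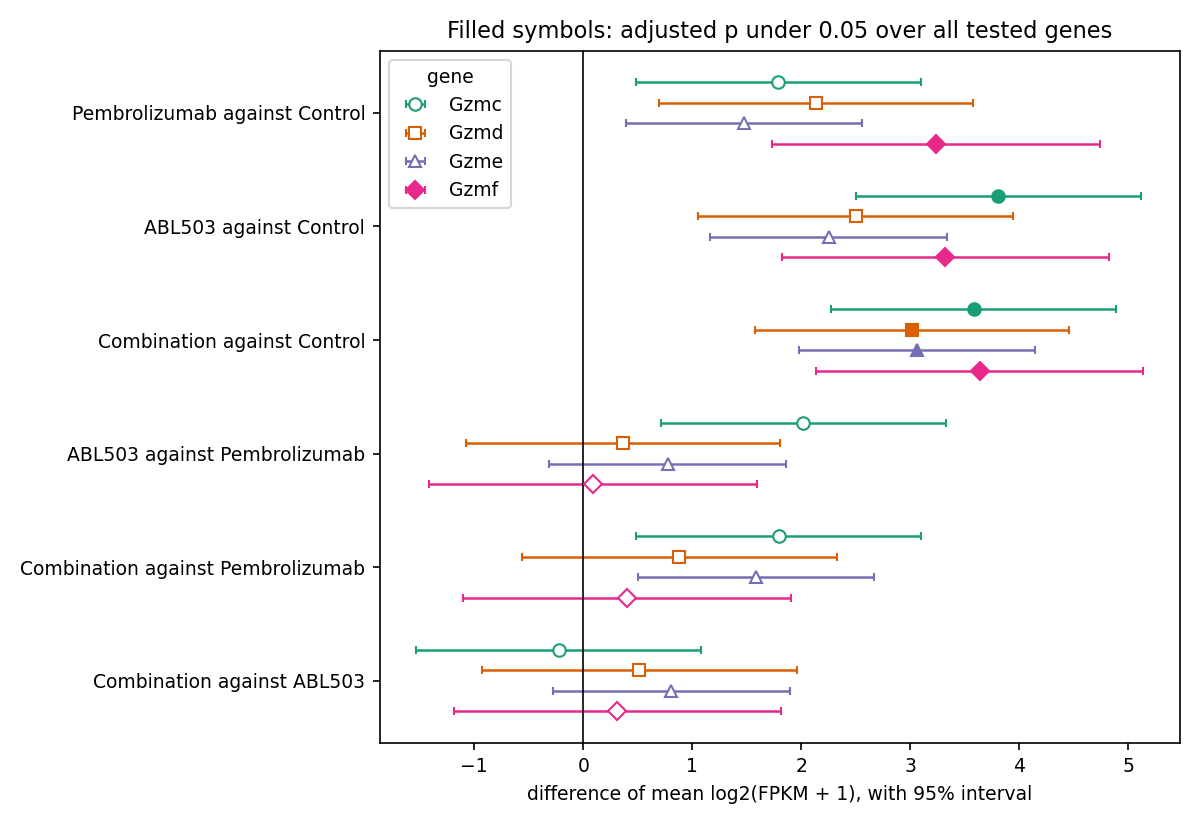
Difference of mean log2(FPKM + 1) with its 95% interval for the 4 tested members in the 6 comparisons of groups, from limma. Filled symbols passed an adjusted p under 0.05 over all genes tested: Gzmf with Pembrolizumab, Gzmc and Gzmf with ABL503, and all 4 in the Combination against Control.

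Among the treated groups, 0 of the 4 members were called by limma in any comparison. ABL503 against Pembrolizumab had 1 member with an unadjusted p under 0.05, Gzmc, which was higher with ABL503 by 2.02 (95% interval 0.71 to 3.32, adjusted p = 0.131). Of all genes, 0.865% were called higher and 1.28% in either direction there. The exact permutation test of Gzmc gave p = 0.00794, again for 1 of 5 members, and its ranges did not overlap, as for 2.55% of genes. Under limma Gzmc passed with array weights (adjusted p = 0.0495) and with only these groups in the fit (0.00155), and over all 18 other settings its adjusted p ran from 0.00155 to 0.341. The other members differed by 0.09 for Gzmf (95% interval -1.42 to 1.59), 0.37 for Gzmd (-1.08 to 1.81) and 0.78 for Gzme (-0.31 to 1.86), and these wide intervals leave room for changes of either sign.

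The Combination against Pembrolizumab had 2 members with unadjusted limma p under 0.05, and 0 of 5 ranges lay apart. Of all genes 0.0678% were called higher and 0.161% in either direction, and 1.59% were higher without overlap. Gzmc differed by 1.79 (95% interval 0.48 to 3.10, adjusted p = 0.222) and Gzme by 1.58 (0.50 to 2.67, adjusted p = 0.194). Both gave an exact permutation p of 0.0397 with overlapping ranges. Gzmd differed by 0.88 (-0.56 to 2.33) and Gzmf by 0.40 (-1.10 to 1.91). The Combination against ABL503 had 0 members under 0.05 by either test and 0 ranges apart. Of all genes 2.29% were called higher and 4.53% in either direction, and 3.19% were higher without overlap. There the differences were -0.22 for Gzmc (-1.53 to 1.08), 0.31 for Gzmf (-1.19 to 1.82), 0.52 for Gzmd (-0.93 to 1.96) and 0.81 for Gzme (-0.28 to 1.89). The sign of the first 3 turned when a single library was left out.

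The interaction asks whether pembrolizumab added as much on top of ABL503 as it did on Control. By limma 0 of 4 members were called, beside 0.203% of genes called in either direction, and 2 had an unadjusted p under 0.05. The estimates were -2.92 for Gzmf (SE 1.02, adjusted p = 0.28), -2.02 for Gzmc (SE 0.89, adjusted p = 0.434), -1.62 for Gzmd (adjusted p = 0.606) and -0.67 for Gzme (adjusted p = 0.805). All 4 were below 0, and all 4 share the same 20 libraries.

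Members did not always move together within a library. ABL503 3 had 411 FPKM of Gzmc and 58.9 of Gzmf, near the middle of its group, but Gzmd at 0 and Gzme at 0.408. Control 2 had 167 FPKM of Gzmc with 7.21 of Gzmf and the other 3 members at 0. Combination 1 had the highest Gzmg of all libraries, 3.73 FPKM, while its Gzmc was 145. Pembrolizumab 3 had the lowest Gzmf of its group, 11.2 FPKM, and the second highest Gzmd, 5.85. Over the 20 libraries, Pearson's r of log2(FPKM + 1) was 0.906 for Gzmd with Gzme and 0.772 for Gzmc with Gzmf. After each group's mean was taken away these were 0.834 and 0.552. Gzmc with Gzmd went from 0.682 to 0.310 by the same step, and Gzmc with Gzme from 0.711 to 0.206. These values describe libraries that share a kit and a sort, and Gzmd and Gzme may share reads as described.

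**Figure D3:**
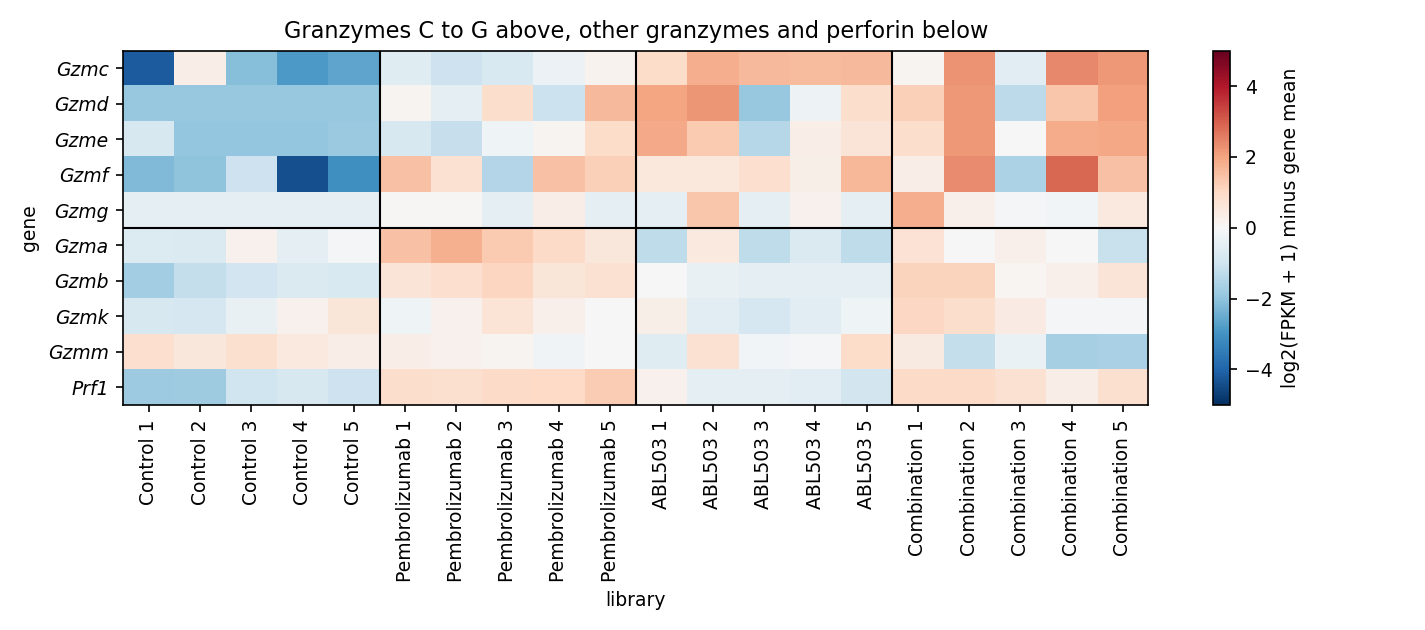
Level of each gene in each of the 20 libraries as log2(FPKM + 1) minus that gene's mean over all libraries, red above and blue below it, with members above the black line and other granzymes and perforin below. Gzmd and Gzme vary together across libraries (r = 0.906), and ABL503 3 is blue for both while it is red for Gzmc.

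Gzmb was far more abundant than any member, at 633 ± 162, 2246 ± 301, 1017 ± 142 and 2122 ± 686 FPKM in Control, Pembrolizumab, ABL503 and Combination. The sum of the 5 members was 2.29% to 30.6% of Gzmb in Control libraries, 3.60% to 11.1% with Pembrolizumab, 25.5% to 56.5% with ABL503 and 7.16% to 62.9% in the Combination. Against Pembrolizumab, ABL503 had less Gzmb (-1.14, adjusted p = 0.00609 by limma), less Gzma, granzyme A (-2.02, adjusted p = 0.00555), and less Prf1, perforin (-1.43, adjusted p = 0.00447). For Gzmc the same comparison gave 2.02 in the opposite direction, which did not pass. The difference in log2(FPKM + 1) of Gzmc minus Gzmb was -4.57 ± 0.57 with Pembrolizumab and -1.41 ± 0.53 with ABL503 (SD, n = 5), and the libraries of the groups did not overlap.

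The differences in log2(FPKM + 1) of Gzmc minus Gzmb and Gzmc minus Gzmf were compared after the values had been seen, the first being added once the second had been tested, in 12 exact permutation tests. For Gzmc minus Gzmb, ABL503 exceeded Pembrolizumab by 3.16 (exact p = 0.00794), and for Gzmc minus Gzmf by 1.93 (exact p = 0.0238). Neither passed after adjustment over the 12 tests (adjusted exact permutation p = 0.0952 for each, the lowest of the 12). The same adjusted value was reached by Gzmc minus Gzmb for ABL503 against Control, higher by 3.09 with ABL503 (exact permutation p = 0.0159). A single test at 0.00794, the smallest p this test can give, could not pass alone over 12, so the adjusted values do not decide the question.

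**Figure D4:**
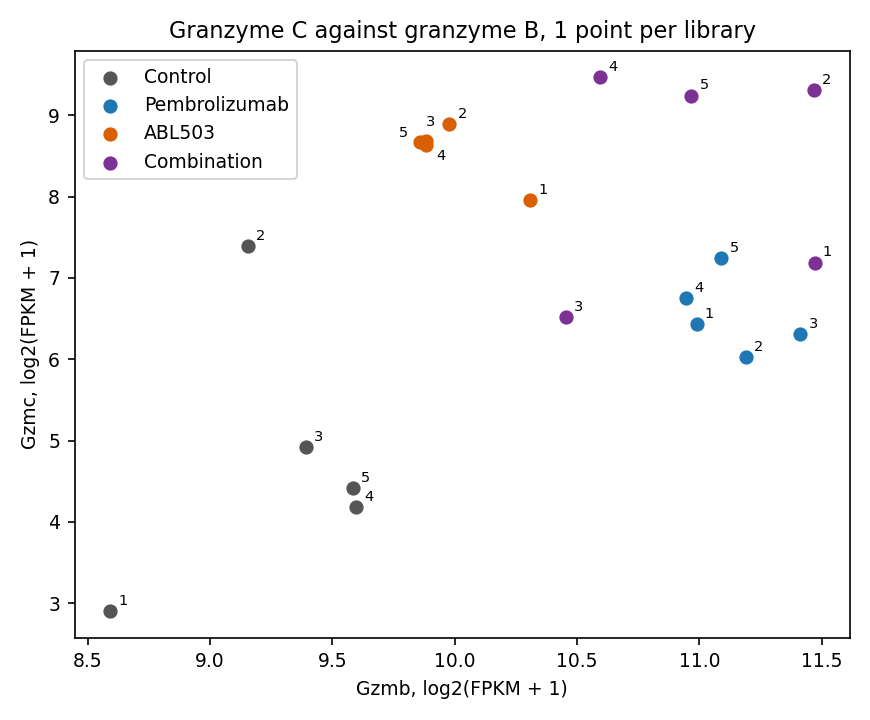
Gzmc against Gzmb in each library, both as log2(FPKM + 1), coloured by group and numbered by replicate. Pembrolizumab libraries lie at high Gzmb with Gzmc of 64.2 to 151 FPKM, and ABL503 libraries at lower Gzmb with Gzmc of 248 to 473 FPKM.

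Position in the cluster did not order the levels throughout. Gzmb, Gzmc and Gzmf, the first in the direction of transcription, were the highest 3 in each group. Gzmn, which lies between Gzmf and Gzmg, was listed at 0 in all 20 libraries, and Gzmd and Gzme, the last of the granzymes, were above Gzmg in the means of the treated groups. Beyond Gzme the cluster holds Ctsg, which encodes the neutrophil protease cathepsin G, and genes of mast cell proteases. Ctsg, Cma2, Mcpt1, Mcpt2, Mcpt4 and Mcpt9 were listed at 0 in all libraries. Mcpt8 was above 0 in 2 libraries and Cma1 in 6, never above 0.847 FPKM.

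**Figure D5:**
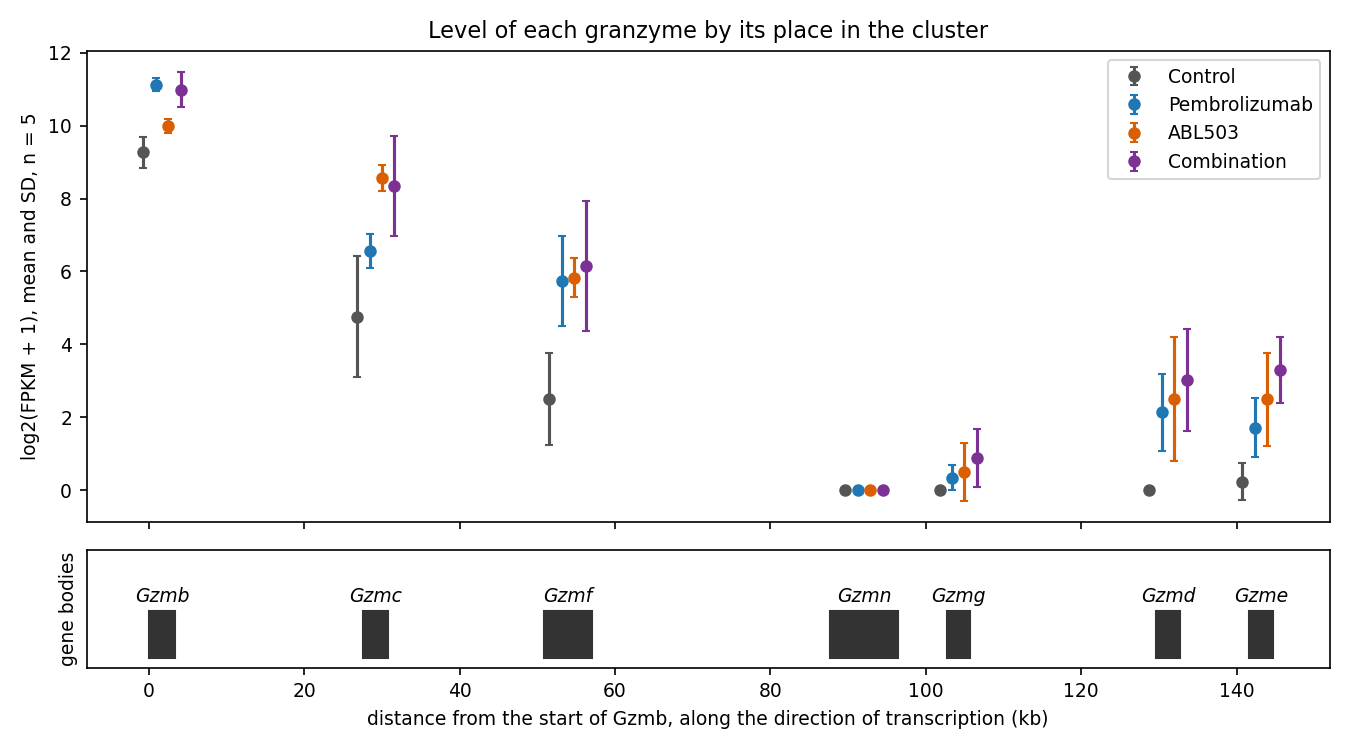
Mean and SD of log2(FPKM + 1) in 5 libraries per group for each granzyme gene of the cluster, placed by its distance in kb from the start of Gzmb along the direction of transcription, with gene bodies to scale below. Gzmn is at 0 in every group, between Gzmf and Gzmg.

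Genes that process, store, release or inhibit granzymes were read from lists chosen with earlier results of these data known. Of the granzymes outside the cluster and perforin, Gzma (1.58, adjusted p = 0.00945 by limma) and Prf1 (2.27, adjusted p = 4.93e-06) rose with Pembrolizumab. With ABL503 0 of 4 passed, where 0.619% of all genes were called in either direction, with Prf1 at 0.84 (adjusted p = 0.0748) and Gzma at -0.44. In the Combination Prf1 rose (2.06, adjusted p = 9.42e-06) and Gzmm, granzyme M, fell (-1.47, adjusted p = 0.00654), while Gzmk, granzyme K, did not pass in any of the 3.

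Among 12 genes of granzyme processing and granule storage, 3 rose with Pembrolizumab, 0 passed with ABL503, and 4 rose and 3 fell in the Combination, beside 5.55%, 0.619% and 12.6% of genes called in either direction. Nkg7, a granule membrane protein, rose by 0.68 with Pembrolizumab (adjusted p = 0.0149). In the Combination Cst7, which encodes the protease inhibitor cystatin F, rose by 0.82 (adjusted p = 0.00179), and Lamp2, a lysosomal membrane protein, by 0.74 (adjusted p = 0.00137). Ctsc, cathepsin C, the enzyme that activates granzymes by removing a short propeptide, fell there by 0.59 on the log2 scale (adjusted p = 0.0108 by limma). Ctsl, cathepsin L, fell by 0.92. Of 10 tested genes of granule exocytosis, Stx11 (0.69), Vamp8 (0.42) and Snap23 (0.40), all of the membrane fusion machinery, rose in the Combination, and 0 passed in the other comparisons with Control. Of 7 tested serpins, which trap serine proteases, Serpine2 rose in all 3 (3.41, 2.45 and 4.63 for Pembrolizumab, ABL503 and Combination). Serpinb6b rose with Pembrolizumab (0.73) and in the Combination (0.58), where Serpinb6a (0.84) and Serpinb9b (2.14) rose too. Serpinb9, an inhibitor of granzyme B, gave 0.58, 0.26 and 0.59 and did not pass.

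Of 22 transcription factors known from cytotoxic T cells, 2 rose and 2 fell with Pembrolizumab, 1 rose with ABL503, and 2 rose and 3 fell in the Combination, where 5.55%, 0.619% and 12.6% of all genes were called in either direction. Zbtb32, a repressor induced in activated lymphocytes, rose in each (2.52, 1.51 and 1.78). Tbx21, the effector factor T-bet, fell in the Combination by 0.58 (adjusted p = 0.038). Runx3, named after its values were seen because its family binds the core found upstream of all 5 members, differed by -0.08, 0.02 and 0.11 and did not pass. The list medians were 0.06, 0.045 and -0.002, near those of all genes (-0.028, -0.008 and -0.036). Of 13 cytokine and costimulatory receptors, 3 rose and 1 fell with Pembrolizumab, 1 rose with ABL503, and 2 rose and 1 fell in the Combination. Tnfrsf9, the mouse 4-1BB gene, rose in each comparison with Control (1.15, 0.60 and 1.26). The hosts carry human 4-1BB, so what this mouse row measures in them is uncertain. Of 9 receptors of exhausted cells, 2 rose with Pembrolizumab, 1 with ABL503 and 2 in the Combination, and 0 fell. Havcr2, the inhibitory receptor TIM-3, rose in each (1.00, 0.67 and 0.71). The counts of both receptor lists stand beside the same shares of all genes called, 5.55%, 0.619% and 12.6%.

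The tested genes whose log2(FPKM + 1) followed a member most closely over the 20 libraries, by Pearson's r, are given as a description. For Gzmc they were Il1r2, the decoy receptor for interleukin 1 (0.890), Ccl3, a chemokine of activated T cells (0.862), Cd70, the ligand of CD27 (0.861), Ptprs (0.828) and Poglut2 (0.825). For Gzmf they were Cdk6, a cell cycle kinase (0.836), Ccdc50 (0.825), Irf8 (0.799), Ccl3 (0.797) and Slc2a3, a glucose transporter (0.790). For Gzmd Oit3 led (0.843) and for Gzme Ociad2 (0.841), and each of these genes was among the first 5 of both members. With group means taken away, Ccl3 was closest to Gzmc (0.904), the chemokine gene Ccl1 led for Gzmf (0.814), Tmem221 for Gzmd (0.832) and B3glct for Gzme (0.765).

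The sort carried its markers. The 6 CD8 T cell markers summed to 3744 to 6571 FPKM over the 20 libraries, and the column sums of the table ran from 575918 to 654333. Since granzymes C to G are also known from natural killer cells, 6 markers of these were read beside them. Ncr1, which defines them, had a median of 0 in each group and its highest value was 0.578 FPKM, and Klrb1c did not exceed 1.98 FPKM. Their summed level was 33.9 to 68.1 in Control, 56.1 to 99.4 with Pembrolizumab, 35.2 to 69.4 with ABL503 and 33.7 to 77.7 in the Combination. Most of it came from Klra7 and Klre1, which went opposite ways. Klre1 rose with Pembrolizumab (1.17, adjusted p = 0.00335 by limma) and in the Combination (0.94, adjusted p = 0.00692). Klra7 differed by -0.96 (limma adjusted p = 0.378) and -1.45 (adjusted p = 0.106) in the same comparisons and did not pass. The part of these receptors in the member results was not tested. The 9 mast cell and basophil markers summed to 0.167 to 3.26 FPKM, with Ms4a2, Tpsb2 and Mcpt4 at 0 in all libraries. The 8 macrophage and monocyte markers summed to 14.3 to 104 in Control, 24.5 to 64.7 with Pembrolizumab, 24.6 to 58.7 with ABL503 and 19.5 to 32.4 in the Combination, and their part was not tested. The 5 tumour epithelium markers summed to 7.44 to 12.9 in Control, 4.72 to 10.5 with Pembrolizumab, 7.36 to 12.7 with ABL503 and 3.53 to 7.74 in the Combination, where Epcam fell by 0.86 on the log2 scale (adjusted p = 0.0339). The part of these markers was not tested. In such bulk samples a change in the share of cells that make a granzyme and a change in RNA per cell cannot be told apart.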

How the data were processed

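CD8+ T cells from tumours were profiled in 20 libraries made with the SMART-Seq v4 kit, per the labels' protocols. The authors deposited 1 table of expression values; HISAT2, StringTie and GRCm38 (mm10) stand in the submitters' processing notes, without versions. No source names the unit: the deposited values were taken as FPKM because they are not whole and sum to 575918 to 654333, a different total in each library. Read depth is therefore unknown, and no counting interval is given.

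Samples were grouped by the treatment label. Of 45777 genes, the 11794 that reached 1 FPKM or more in 5 or more libraries were fitted as log2(FPKM + 1) with limma 3.58.1 (R 4.3.3), trend on, 1 mean per group, for 6 pairwise comparisons and the interaction. P-values are two-sided and Benjamini-Hochberg adjusted over all 11794 genes within a comparison. Exact permutation tests used all 252 splits of 5 against 5 libraries (SciPy 1.17.1). The fit was tested on simulated data, with changes placed in genes whose Control mean log2(FPKM + 1) was above 2. For ABL503 against Control it recovered 56.7%, 82.1% and 100% of changes of 1.5-, 2- and 4-fold, with 6 wrong calls among 11482 genes of all spreads. For Pembrolizumab against Control it recovered 52.2%, 86.6% and 98.5%, with 10 wrong calls. The Combination against Control gave 62.7%, 80.6% and 95.5%, with 9 wrong calls. Gzmd and Gzme, with Control means of 0 and 0.239 on the log2(FPKM + 1) scale, lie below the level of 2 set for the changed genes. Standard errors of 0.52 to 0.72 on the log2 scale leave less power for the members. Alternatives were another pseudocount, no filter, 2 other scalings, array weights, a replicate block, fewer groups and leaving out libraries. Sequences came from GENCODE M21 and RefSeq. The members, gene lists and tests were chosen with earlier results of these data known. Genes named were the members, the other genes of the cluster, a panel of granzymes, Prf1, Ctsc, Serpinb9 and Serpinb9b, up to 4 genes of each other list with the smallest p in a comparison, and the 5 named genes (no gene models or pseudogenes) most correlated with each member.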

Additional observations from a re-analysis of the deposited data

Results flagged for a closer look

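Within groups of 5 libraries, a library was marked where its gap to the nearest other, divided by the range of the group, was above Dixon's 95% critical value of 0.71. Chance marks about 1 in 20 groups on 1 scale. Of 18 gene and group sets with any spread, 4 were marked on the FPKM scale and 4 on the log2(FPKM + 1) scale, 1 of them on both. Gzmc stood far above its group in Control 2 at 167 FPKM and, on the log2 scale, below its group in ABL503 1 at 248 FPKM. Gzmd was low in Combination 3 at 0.537 FPKM on the log2 scale. Gzme was high in Control 1 at 1.18 FPKM on both scales. Gzmf was low in Pembrolizumab 3 at 11.2 FPKM on the log2 scale. Gzmg was high in ABL503 2 at 2.50 FPKM and in Combination 1 at 3.73 FPKM.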

How the results depend on the processing

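For the Combination against Control, Gzmc, Gzme and Gzmf passed in each of the 18 other settings, and Gzmd in the 17 in which it was tested, since it missed the filter when only the compared groups were fitted. The number of members called for Pembrolizumab against Control, 1 as reported, was 3 with a pseudocount of 0.1, 0 without the filter, 3 with array weights, 2 without Control 1 and ABL503 3, 2 with only the compared groups fitted, and 1 to 2 when 1 library was left out (2 without Control 2). For ABL503 against Control, 2 as reported, it was 4 with a pseudocount of 0.1, 1 without the filter, and 1 to 3 when 1 library was left out. It did not stay at 2 in all the settings not named here, and was 3 in some. Over the settings other than leaving out 1 library, Gzmc passed in 8 of 8, Gzme in 6 of 8, Gzmf in 5 of 8 and Gzmd in 1 of 7. For ABL503 against Pembrolizumab, 0 as reported, it was 1 with array weights and 1 with only the compared groups. The cause was not tested.

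Signs turned only between treated groups, for differences that did not pass. For ABL503 against Pembrolizumab, Gzmd was -0.019 and Gzmg -0.037 with a pseudocount of 0.1. Leaving out 1 library there gave Gzmd -0.041 (without ABL503 2) to 0.99, Gzmg -0.18 (without ABL503 2) to 0.27, and Gzmf -0.45 (without Pembrolizumab 3, and -0.13 without ABL503 5) to 0.29. For the Combination against Pembrolizumab it gave Gzmf -0.13 (without Pembrolizumab 3, and -0.045 without Combination 4) to 1.07. For the Combination against ABL503 it gave Gzmc -0.51 to 0.23 (above 0 without Combination 3, and 0.064 without Combination 1), Gzmd -0.11 (without ABL503 3, also with Control 1 left out) to 1.115 and Gzmf -0.13 (without Combination 4, and -0.0052 without Combination 2) to 0.98. The cause was not tested.

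Deviations of samples with the same replicate number were weakly correlated (r -0.146 to 0.107 over 30 pairs, median 0.026). Differently numbered pairs of other groups had a median of -0.002. These values cannot show whether the number stands for a shared batch. With a replicate block the counts of called members stayed at 1, 2 and 4 against Control and 0 elsewhere, with Gzmf at 3.32 (adjusted p = 0.0666) and Gzme at 2.25 (adjusted p = 0.0475) for ABL503 against Control. Depth is unknown, so differences among the low levels of Gzmd, Gzme and Gzmg have no counting error beside them.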
